A study of Drosophila melanogaster with 6 samples.

Results

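In the fat body of starved female flies, 29 genes of the 12925 in the matrix were above their fed level at day 2 of starvation and below it at day 5. They include enzymes of fatty acid breakdown (*scu*, *yip2*, *Mtpalpha*, *Acsl*), fatty acid carriers (*Fatp1*, *fabp*), mitochondrial energy genes (*Sirup*, *Scsalpha1*, *UQCR-11L*), receptors and transporters (*AdipoR*, *Stim*, *path*) and the transcriptional repressor *h* (*hairy*). The genes were chosen by their values in fat body nuclei. For each gene the mean deposited value was taken per library, and a gene was kept where both day 2 libraries lay at least 0.2 above the fed mean and both day 5 libraries at least 0.2 below it. These thresholds were passed by 39 genes. Of these, 10 were left out by name (*whd*, *CROT*, *Mcad*, *Mtpbeta*, *Etf-QO*, *Pepck2*, *CG5966*, *Lip4*, *GIIIspla2* and *Cyp4e3*), and no antisense gene was among them. The pattern in fat body is therefore what selected the genes, and it is given as a description with no test.

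Single-nucleus RNA sequencing was run on whole bodies without heads, from fed flies and from flies starved to day 2 or to day 5. Each of these 3 conditions has 2 libraries. All flies were adult females with the genotype PromE-gal4, Tub-gal80ts, so the fed flies carried the same transgenes as the starved ones. PromE-gal4 drives expression in oenocytes, and the ubiquitous temperature-sensitive Gal80 holds Gal4 back at low temperature. All flies were shifted to the warmer temperature as adults, for which the labels give both 5 and 7 days, and the starved flies were kept on a medium of ions and metals with no nutrients. The labels do not say whether paired libraries came from different flies, so every p-value measures the spread between libraries, which may be technical.

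The fat body is the main energy store of the fly and combines tasks of mammalian liver and fat tissue. It keeps triglyceride in lipid droplets and glycogen in the cytosol, and releases both when food is withheld. Fatty acids freed from triglyceride are bound by carrier proteins, joined to coenzyme A by acyl-CoA synthetases, and shortened in mitochondria by repeated rounds of dehydrogenation, hydration, a second dehydrogenation and thiolysis. The reduced cofactors and acetyl-CoA made in this way feed the tricarboxylic acid cycle and the respiratory chain.

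The matrix holds 43027 nuclei in 26 clusters that the authors named, and cluster 3 is their fat body. Nuclei per library numbered 3776 to 10091, of which 293 to 730 were fat body. The median number of unique molecular identifiers (UMIs, 1 per captured RNA molecule) in a fat body nucleus lay between 3884 and 4750 per library. Over whole libraries the median was 1206 to 1268 in fed flies, 1295 and 1329 at day 2 and 1074 and 1078.5 at day 5. A deposited value is the natural log of 1 plus a scaled UMI share, with a multiplier of its own for each gene, so a gene's values can be set against each other but not against those of another gene. Levels are given here as UMIs of a gene per 10000 UMIs of all fat body nuclei of a library, worked back from the values. They are not corrected for gene length, and genes are not ranked against each other by them. All 6 fat body markers (*apolpp*, *Apoltp*, *Lsd-1*, *FASN1*, *AkhR* and *Yp1*) were highest in cluster 3 of fed flies. Their summed level in fat body was 518 and 501 UMIs per 10000 in fed flies, 294 and 293 at day 2, and 247 and 255 at day 5. The 6 ovary and eggshell markers summed to 13.8 and 13.6 UMIs per 10000 in the fat body of fed flies, 0.246 and 0.289 at day 2, and 0.105 and 0.0575 at day 5, and no marker of this list was at 0. Such RNA in fat body nuclei can be free RNA caught in droplets, and its part in the patterns below was not tested. Among all nuclei 179 barcodes occurred in more than 1 library, and 23 fat body nuclei carried one of them.

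In fat body the members covered a wide range of sizes. The ratio of day 2 to fed levels ran from 1.21 to 2.59 with a median of 1.52, and that of day 5 to fed levels from 0.131 to 0.878 with a median of 0.468. The level at day 2 was at least 1.5-fold that of fed flies for 18 members and at least 2-fold for 5 (*h*, *Scsalpha1*, *CG11741*, *Rgk2* and *CG11200*). The fed level was more than 2-fold the day 5 level for 16 members. Between day 2 and day 5 the levels differed by 1.53-fold to 15.7-fold, with a median of 3.38-fold, and by at least 4-fold for 11 members. For all 29 members the level in each day 2 library was above both fed libraries and the level in each day 5 library below both. On the deposited scale the median difference of the members was 0.42 at day 2 and -0.41 at day 5, against 0.024 and -0.0030 over all 8065 genes tested in fat body. By limma with Benjamini-Hochberg adjustment, 12.1% of those genes were called higher and 8.33% lower at day 2, and 15.5% higher and 15.9% lower at day 5. All 29 members are among those higher at day 2 and lower at day 5, which their selection on the same contrasts brings with it.

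**Figure D1:**
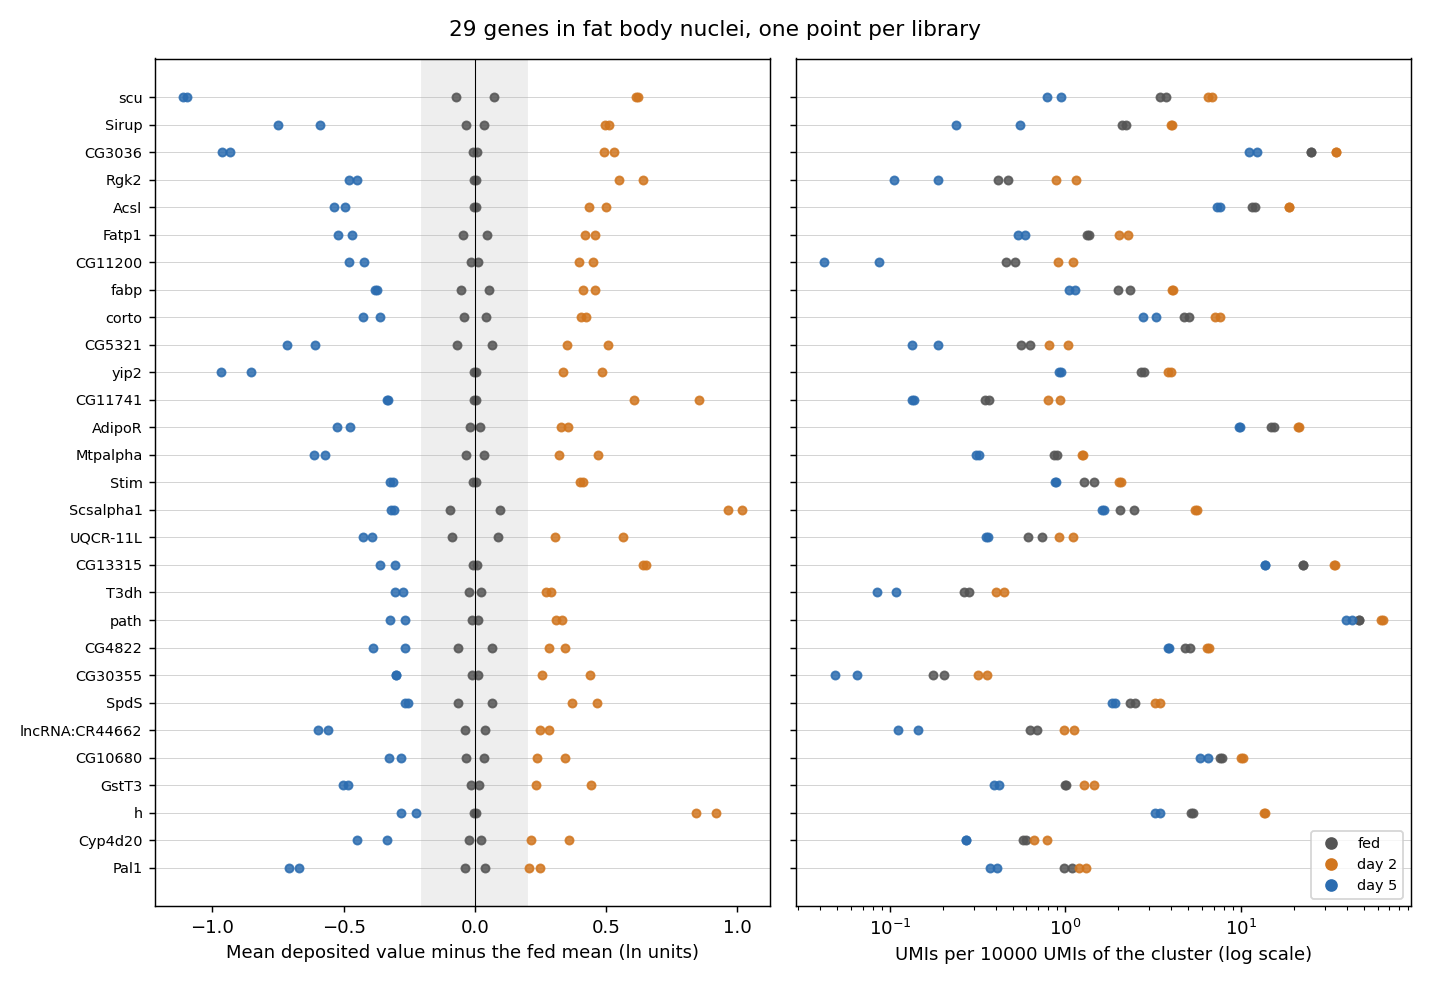
The 29 genes in fat body nuclei with 1 point per library for fed flies, day 2 and day 5, on the left as the mean deposited value minus the fed mean (natural log units, with the band of 0.2 on either side of 0 shaded), on the right as UMIs per 10000 UMIs of the cluster on a log axis. All day 2 points lie right of the band and all day 5 points left of it because the genes were chosen that way, and *scu* reaches farthest below the fed mean.

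The enzymes of mitochondrial fatty acid breakdown come first. *scu* (scully) encodes a mitochondrial hydroxyacyl-CoA dehydrogenase, which carries out the second dehydrogenation of the cycle. It had 3.44 and 3.74 UMIs per 10000 in fed fat body, 6.82 and 6.45 at day 2, and 0.790 and 0.948 at day 5. Its level was thus 1.85 times the fed level at day 2 and 0.242 times at day 5. *yip2*, a 3-ketoacyl-CoA thiolase that performs the last step, had 2.82 and 2.69 in fed flies, 4.001 and 3.82 at day 2, and 0.916 and 0.941 at day 5, ratios of 1.42 and 0.337. *Mtpalpha* encodes the alpha subunit of the trifunctional protein, which handles long-chain substrates, and its partner *Mtpbeta* is 1 of the 10 genes left out by name. *Mtpalpha* had 0.896 and 0.863 UMIs per 10000 in fed flies, 1.24 and 1.25 at day 2, and 0.308 and 0.323 at day 5. *Acsl*, the long-chain acyl-CoA synthetase that activates fatty acids, had 11.97 and 11.59 in fed flies, 18.9 and 18.7 at day 2, and 7.27 and 7.57 at day 5. Of these 4 enzymes *scu* had the lowest day 5 ratio and *Acsl* the highest (0.630).

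Genes for fatty acid uptake and binding follow. *Fatp1* encodes a fatty acid transport protein of the membrane, and had 1.36 and 1.32 UMIs per 10000 in fed fat body, 2.27 and 2.03 at day 2, and 0.538 and 0.589 at day 5. *fabp*, a cytosolic fatty acid binding protein, had 2.35 and 1.99 in fed flies, 4.06 and 4.12 at day 2, and 1.14 and 1.05 at day 5. The ratios of day 2 and day 5 to fed levels were 1.61 and 0.422 for *Fatp1* and 1.89 and 0.504 for *fabp*.

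The next group works in the tricarboxylic acid cycle and the respiratory chain, which use the products of fatty acid breakdown. *Sirup*, named as a starvation-upregulated protein, is an assembly factor of succinate dehydrogenase. It had 2.21 and 2.09 UMIs per 10000 in fed fat body, 4.04 and 4.01 at day 2, and 0.552 and 0.237 at day 5, so the 2 day 5 libraries differed from each other by more than the fed or day 2 pairs did. *Scsalpha1* encodes the alpha subunit of succinyl-CoA synthetase, which acts just before that enzyme in the cycle. Its levels were 2.45 and 2.05 in fed flies, 5.61 and 5.47 at day 2, and 1.66 and 1.62 at day 5. With a ratio of 2.46 at day 2 and 0.729 at day 5, most of its distance from fed flies lay at day 2, whereas *Sirup* was far from the fed level on both days (1.87 and 0.184). *UQCR-11L*, a relative of a small subunit of respiratory complex III, had 0.613 and 0.733 in fed flies, 0.920 and 1.11 at day 2, and 0.363 and 0.352 at day 5. Listed here though not part of that group, *T3dh* encodes a type III alcohol dehydrogenase. It had 0.284 and 0.263 in fed flies, 0.444 and 0.405 at day 2, and 0.0839 and 0.108 at day 5.

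Receptors, transporters and signalling genes make up the next group. *AdipoR*, the adiponectin receptor gene, had 15.3 and 14.8 UMIs per 10000 in fed fat body, 21.5 and 21.1 at day 2, and 9.93 and 9.78 at day 5. *Stim*, the calcium sensor of the endoplasmic reticulum that opens store-operated calcium entry, had 1.28 and 1.45 in fed flies, 2.08 and 2.02 at day 2, and 0.881 and 0.869 at day 5. *path* (pathetic) encodes an amino acid transporter. It had 47.2 and 47.1 in fed flies, 64.1 and 62.4 at day 2, and 43.2 and 39.6 at day 5, a day 5 ratio of 0.878 that is the one closest to 1 among the members. *Rgk2* encodes a small GTPase of the RGK family. Its levels were 0.410 and 0.474 in fed flies, 0.888 and 1.14 at day 2, and 0.105 and 0.187 at day 5, ratios of 2.30 and 0.330. *SpdS*, spermidine synthase of polyamine synthesis, had 2.49 and 2.33 in fed flies, 3.22 and 3.44 at day 2, and 1.91 and 1.85 at day 5. *Pal1*, a lyase that amidates peptides, had 0.981 and 1.09 in fed flies, 1.31 and 1.19 at day 2, and 0.405 and 0.374 at day 5. *Pal1* was nearest to the fed level at day 2 of all members (ratio 1.21).

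A pair of members regulate transcription or chromatin. *h* encodes a basic helix-loop-helix repressor known from embryonic segmentation. It had 5.30 and 5.20 UMIs per 10000 in fed fat body, 13.7 and 13.5 at day 2, and 3.45 and 3.25 at day 5. Its day 2 ratio of 2.59 was the highest of the 29 genes, and its day 5 ratio was 0.637. *corto*, a chromatin factor that interacts with Polycomb and trithorax group proteins, had 5.06 and 4.71 in fed flies, 7.58 and 7.11 at day 2, and 2.78 and 3.30 at day 5. Another pair belong to families of detoxifying enzymes. *GstT3*, a glutathione S-transferase, had 0.999 and 1.01 in fed flies, 1.27 and 1.45 at day 2, and 0.391 and 0.417 at day 5. *Cyp4d20*, a cytochrome P450, had 0.595 and 0.572 in fed flies, 0.658 and 0.781 at day 2, and 0.273 and 0.273 at day 5.

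The other 9 members are known here by their CG numbers or as a long noncoding RNA, and no role is given to them. The one farthest below fed flies at day 5 was *CG11200*, with 0.459 and 0.519 UMIs per 10000 in fed fat body, 1.11 and 0.902 at day 2, and 0.0419 and 0.0862 at day 5. Its day 5 ratio of 0.131 was the lowest of all members. The noncoding *lncRNA:CR44662* had 0.625 and 0.691 in fed flies, 0.979 and 1.12 at day 2, and 0.112 and 0.144 at day 5, a day 5 ratio of 0.194. *CG5321* had 0.555 and 0.632 in fed flies, 1.03 and 0.802 at day 2, and 0.133 and 0.187 at day 5. *CG11741* was 2.41 times its fed level at day 2, with 0.347 and 0.368 in fed flies, 0.793 and 0.934 at day 2, and 0.133 and 0.137 at day 5. *CG30355* had 0.175 and 0.204 in fed flies, 0.317 and 0.357 at day 2, and 0.0489 and 0.0647 at day 5. The remaining CG genes had day 5 ratios between 0.470 (*CG3036*) and 0.803 (*CG10680*). *CG3036* had 25.1 and 25.1 in fed flies, 34.7 and 34.6 at day 2, and 11.2 and 12.4 at day 5. *CG13315* had 22.5 and 22.5 in fed flies, 33.7 and 34.5 at day 2, and 13.6 and 13.7 at day 5. For *CG4822* the ratios were 1.31 at day 2 and 0.780 at day 5, and for *CG10680* they were 1.32 and 0.803.

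At the edge of the selection, the smaller of the 2 steps (from the fed mean to the nearer day 2 library, and to the nearer day 5 library) was 0.225 for *h*, 0.215 for *Cyp4d20* and 0.205 for *Pal1*. Just outside lay *CG4615* (0.196), *Lsd-2* (0.194) and *CG33523* (0.182). *Lsd-2*, a perilipin that coats lipid droplets, had mean values of 2.89 and 2.87 in fed fat body, 3.15 and 3.08 at day 2, and 1.71 and 1.68 at day 5. It thus missed the selection by its step at day 2 alone, while its step at day 5 was 1.17. The edge is a matter of the threshold, since 91 genes passed one of 0.1 and 18 passed one of 0.3.

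The share of fat body nuclei with a UMI was also taken after every nucleus was reduced at random to 1000 UMIs, which takes out differences in depth between nuclei. These shares come from the nuclei that chose the genes, and are a description. Both day 2 shares lay above both fed shares for 28 members and both day 5 shares below them for 28, the exceptions being *CG30355* at day 2 and *Cyp4d20* at day 5. How many of all genes show such an order is not given here, so nothing is read from these counts. A *scu* UMI was found in 26.8% and 32.4% of fed fat body nuclei, 45.4% and 43.6% at day 2, and 7.93% and 8.93% at day 5. Without the reduction the shares were 66.7% and 70.8% in fed flies, 81.0% and 82.8% at day 2, and 31.8% and 32.1% at day 5. In neurons, set beside fat body as another cell type, the reduced shares were 3.08% and 4.10% in fed flies, 6.19% and 7.53% at day 2, and 2.08% and 0.847% at day 5. Fat body was above neurons in every condition for *scu*, and neuron nuclei were shallower, with a median of 1626 to 2050 UMIs. An *h* UMI was found in 31.2% and 30.3% of fed fat body nuclei, 56.9% and 58.5% at day 2, and 22.4% and 24.4% at day 5. For *fabp* the shares were 19.5% and 17.2% in fed fat body, 30.7% and 28.9% at day 2, and 8.62% and 9.62% at day 5, while fed neurons had 13.8% and 13.3%, so *fabp* was not confined to fat body. *path* was found in 93.9% and 91.7% of fed fat body nuclei, 95.6% and 96.3% at day 2, and 84.8% and 86.3% at day 5. For so widespread a gene the share leaves little room to show a change. A *CG30355* UMI was found in 1.79% and 2.42% of fed fat body nuclei, 2.41% and 2.07% at day 2, and 0% and 0.687% at day 5, so fed flies and day 2 overlapped. The 0% stands for 0 of 290 nuclei, with an exact Clopper-Pearson upper bound of 1.26% that covers counting error only. With the reduction, 15 genes passed the thresholds and 13 of them were members (*scu*, *Sirup*, *CG3036*, *Rgk2*, *Acsl*, *Fatp1*, *fabp*, *corto*, *yip2*, *AdipoR*, *CG13315*, *path* and *CG10680*).

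All 29 members were matched to the Ensembl annotation of build BDGP6.54 (*h* as its entry *hry*). They lie on chromosome arms 2L (7), 2R (7), 3L (5), 3R (5) and X (5). The median gene length was 3495 bp for members and 2832 bp for the 7652 of 8065 genes tested in fat body that had a position. *scu* lies on chromosome X from 18091259 to 18092853, and no other annotated gene overlaps it. *Sirup* lies on 2L from 7998869 to 7999676. A cluster of 3 members stands at a single locus, since *Acsl* spans 8665813 to 8683022 of 2R on the plus strand and holds 2 further members. *UQCR-11L* lies at 8677219 to 8677661 on the same strand and *CG30355* at 8679146 to 8679953 on the minus strand, and neither shares an exon base with *Acsl*. Nuclear RNA contains unspliced transcripts, so reads from *Acsl* introns on the plus strand could be counted for *UQCR-11L*. *fabp* lies on 3R from 11559896 to 11567054, and 1660 of its 2302 exon bases also belong to *sea*, a mitochondrial citrate carrier gene on the same strand. Counts of *fabp* and *sea* may therefore be split between them, and *sea* was at only 0.0241 and 0.0351 UMIs per 10000 in fed fat body, 0.0278 and 0.0641 at day 2, and 0.0280 and 0.0359 at day 5. In all, 13 members overlap no other annotated gene, 4 overlap one on the same strand and 13 overlap one on the opposite strand. Whether the counting used strand is not given in the sources used here, so reads of a member and of a gene opposite to it may not be told apart.

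In fed flies the level was highest in fat body among the 26 clusters for 19 of the 29 members. Nothing is read from this count, because the rule itself favours such genes: a deposited value is scaled by the gene's mean UMIs over all nuclei, so a fixed step of 0.2 is reached more easily by a gene concentrated in fat body. The fat body level was 7.53 times that of the next cluster for *CG10680*, 7.32 times for *AdipoR* and 6.49 times for *CG5321*. *CG3036*, at 25.1 UMIs per 10000, was followed by oenocytes with 6.02, a ratio of 4.17. Other members that were highest in fat body had a near second. *scu* had 3.58 UMIs per 10000 in fat body and 3.06 in germline cluster 6, and *Mtpalpha* had 0.881 in fat body and 0.833 in ovary cluster 7. The 10 members that were higher elsewhere include *fabp*, with 2.18 in fat body and 15.9 in germline cluster 6, which put fat body at rank 16. *corto* had 4.90 in fat body and 12.6 in trachea cells (rank 12). *h* had 5.26 in fat body and 13.9 in cluster 12 (rank 10), which the authors named Malpighian tubule and pericardial cells. Of the listed enterocyte markers *alphaTry*, *betaTry*, *Amy-p*, *nub* and *Jon65Aiv* were highest in cluster 12, while *Jon99Ciii* was highest in flight muscle (1.41). Markers of Malpighian tubule or pericardial cells were not listed, so the name of cluster 12 was not tested. *Sirup* had 2.15 in fat body and 4.44 in trachea cells (rank 7). The rest of these 10 were *CG11200* (rank 8), *Stim* (6), *Scsalpha1* (5), *Fatp1* (4), *GstT3* (3) and *Rgk2* (2).

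**Figure D2:**
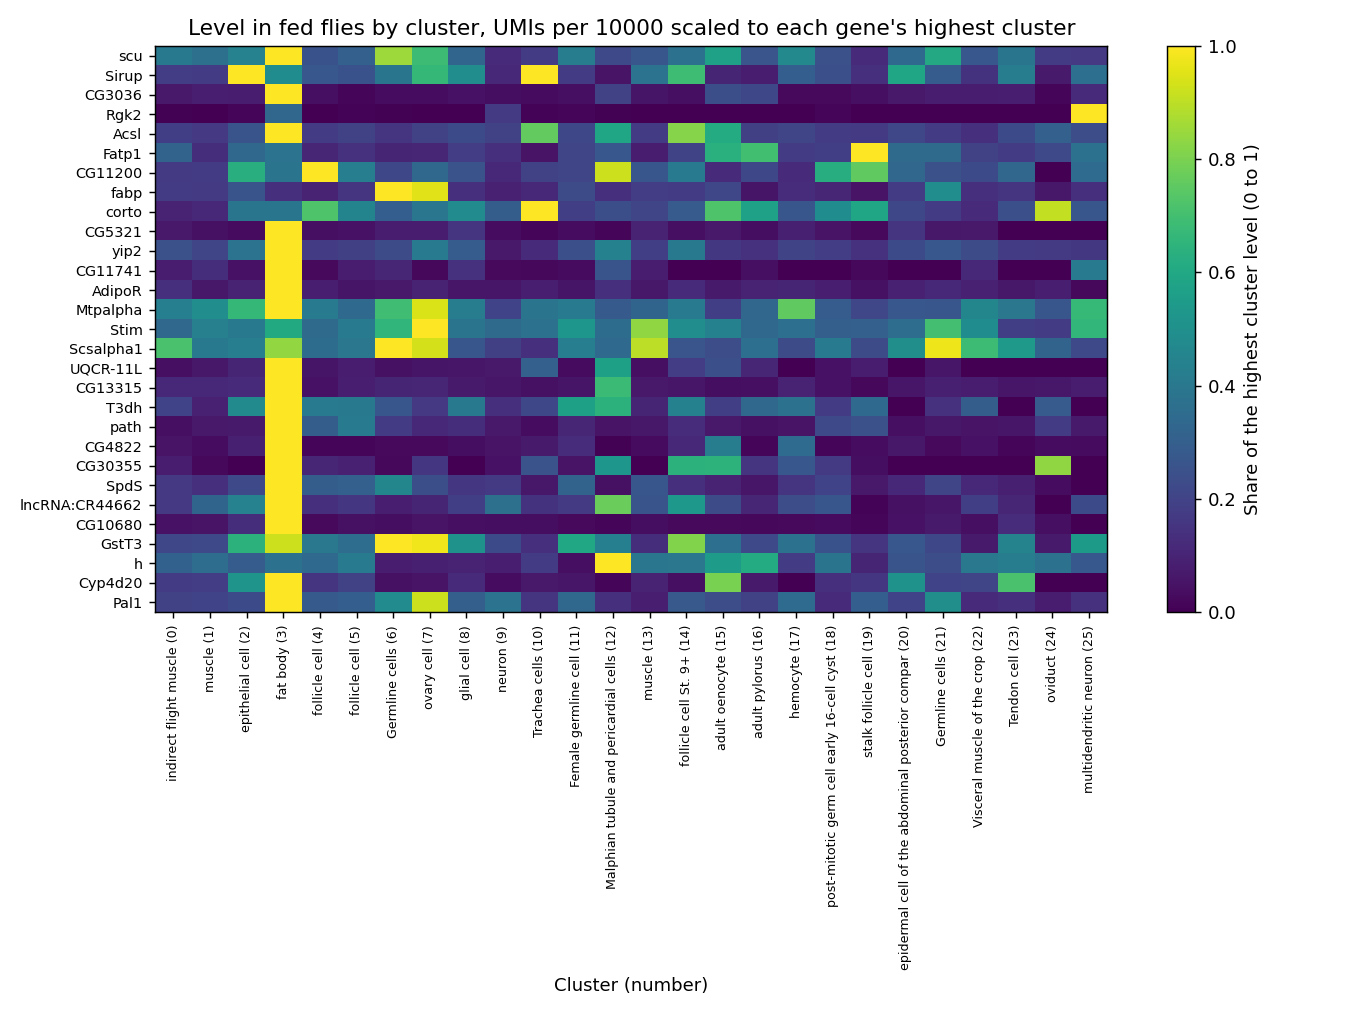
Level of each of the 29 genes in the clusters of fed flies, as summed UMIs per 10000 UMIs of the cluster relative to the gene's highest cluster, with genes down and clusters across. Fat body holds the highest level for 19 genes, while *fabp*, *corto*, *h* and *Sirup* are among the 10 with a higher level in another cluster.

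Nuclei outside cluster 3 entered the selection only through the multiplier of each gene, which is the same in all libraries, and the members were tested in them. Mean values per library were averaged with equal weight over 18 other clusters, those that no library represented by fewer than 20 nuclei. Of the 29 members, 4 were called higher at day 2 than in fed flies and none was called lower (limma, Benjamini-Hochberg adjusted p under 0.05 over 11445 genes). Over all tested genes 3.82% were called higher and 5.26% lower at day 2. *h* had 0.992 and 0.980 at day 2 and 0.804 and 0.789 in fed flies, a difference of 0.19 ± 0.023 (SE, n = 2 libraries each, limma adjusted p = 1.39e-05). *CG13315* had 0.591 and 0.568 at day 2 and 0.454 and 0.441 in fed flies, a difference of 0.13 (limma adjusted p = 0.000542). *Sirup* had 0.704 and 0.664 at day 2 and 0.580 and 0.543 in fed flies, a difference of 0.12 (limma adjusted p = 0.00266). In each of these the 2 day 2 libraries lay above both fed libraries. *Scsalpha1* was the fourth, with 0.642 and 0.654 at day 2 and 0.522 and 0.577 in fed flies (limma adjusted p = 0.0228). At an unadjusted p under 0.05 by limma, *CG11200*, *Stim* and *lncRNA:CR44662* were lower at day 2, and none of them passed adjustment. The share of all genes at that unadjusted threshold is not given here, so nothing is read from these members. The median difference of the members was 0.012 at day 2, beside 0.0047 over all genes. The calls of *h* and *CG13315* held under all 14 alternative settings. The calls of *Sirup* and *Scsalpha1* were lost without fed library 2 or day 2 library 1. That of *Scsalpha1* was also lost without fed library 1 or day 2 library 2. In each of these settings the share of all genes called higher was smaller too.

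At day 5, 17 members were called lower and 1 higher than in fed flies in the average over other clusters, while 21.5% of all genes were called lower and 6.93% higher. *fabp* had the largest difference, with 0.566 and 0.566 at day 5 and 0.904 and 0.879 in fed flies, or -0.33 ± 0.025 (SE, limma adjusted p = 1.04e-08). *scu* had 0.362 and 0.390 at day 5 and 0.632 and 0.565 in fed flies, a difference of -0.22 (limma adjusted p = 2.11e-06). *CG11200* had 0.151 and 0.165 at day 5 and 0.379 and 0.299 in fed flies, a difference of -0.18 (limma adjusted p = 1.44e-05). For these 3 genes the 2 groups did not overlap. The fatty acid enzymes *yip2* (-0.13) and *Mtpalpha* (-0.098) fell as well, as did *Sirup* (-0.12), *AdipoR* (-0.11), *GstT3* (-0.10) and *Scsalpha1* (-0.094). *CG13315*, *path*, *CG4822*, *Stim*, *CG10680*, *SpdS*, *lncRNA:CR44662* and *CG30355* made up the other 8. *Acsl* showed no such difference, with 0.832 and 0.831 at day 5 and 0.835 and 0.844 in fed flies. The 1 member called higher was *h*, with 0.867 and 0.893 at day 5 and 0.804 and 0.789 in fed flies (difference 0.084, limma adjusted p = 0.0108). The median difference of the members was -0.065 at day 5, against -0.012 over all genes. Between day 5 and day 2, 21 members were called lower, with 22.9% of all genes called lower. Markers of other tissues moved with these contrasts. The 6 ovary and eggshell markers, averaged over the same clusters, summed to 36.2 and 32.5 UMIs per 10000 in fed flies, 1.04 and 1.22 at day 2, and 0.771 and 0.730 at day 5. The 6 enterocyte markers summed to 30.4 and 28.7 in fed flies, 12.96 and 13.3 at day 2, and 10.6 and 7.84 at day 5, and in fat body to 11.9 and 12.1 in fed flies, 4.56 and 4.44 at day 2, and 2.66 and 2.33 at day 5, with no marker at 0 there. Their part in the calls was not tested. With the ovary clusters left out of the average, 13 members were lower and 0 higher at day 5, beside 19.7% and 5.99% of all genes.

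The day 5 counts depended on the scale and the libraries. Of all calls at day 5, 39.1% were lower on summed UMIs and 75.7% on mean values. On summed UMIs 15 members were lower, beside 18.4% of all genes. Of all genes 28.6% were called higher on that scale, against 6.93% on mean values. Summed UMIs carry a constant added to each sum, which weighs more in the smaller totals of the day 5 libraries. The part of that constant in the shift was not tested. With nuclei reduced to 500 UMIs 5 members were lower beside 6.97% of all genes. With any library left out, the share of all genes called lower was smaller too. Without fed library 1 *CG13315*, *CG30355*, *CG4822*, *GstT3*, *SpdS*, *Stim*, *lncRNA:CR44662* and *path* were no longer called. Leaving out fed library 2 ended the calls of *CG30355*, *CG4822*, *Scsalpha1*, *SpdS*, *Stim* and *path*, and leaving out a day 5 library those of *CG4822* and *Stim* (library 1) or *Scsalpha1* and *SpdS* (library 2). *SpdS* was also lost without either day 2 library. The call of *h* at day 5 was lost without fed library 1, fed library 2 or day 5 library 2. The count of members lower at day 5 than at day 2 was smaller without either day 2 library. The share of all genes for that contrast in these settings is not given here.

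The order seen in fat body, with both day 2 libraries above and both day 5 libraries below both fed libraries, appeared in the average over other clusters for 8 of 29 members, beside 10.2% of all genes. These were *Sirup*, *Scsalpha1*, *fabp*, *path*, *SpdS*, *CG3036*, *CG11741* and *CG13315*. Both day 5 libraries lay below both fed libraries for 23 of 29 members, beside 45% of all genes.

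Free RNA from fat body can add to the values of other clusters. The summed level of the 6 fat body markers averaged over the other clusters was 19.3 and 18.2 UMIs per 10000 in fed flies, 10.0 and 9.89 at day 2, and 8.54 and 7.48 at day 5. In fed flies the level elsewhere was between 1.76% and 18.9% of the fat body level for these markers, with a median of 3.14%. The upper end is *Yp1* alone, and the next highest marker was *FASN1* with 7.41%. For the members it was between 4.07% and 181%, with a median of 24.8%. For 13 members it lay within the range of the markers, from 4.07% for *CG10680* and 4.11% for *Rgk2* to 17.3% for *CG30355* and 18.9% for *SpdS*, with *CG11741*, *CG5321*, *CG3036*, *CG4822*, *AdipoR*, *path*, *CG13315*, *UQCR-11L* and *Cyp4d20* between. Of these 13, *CG13315* is 1 of the 4 calls at day 2, and *AdipoR*, *path*, *CG4822*, *CG30355*, *SpdS*, *CG10680* and *CG13315* are 7 of the 17 lower calls at day 5. Only *CG10680*, *Rgk2*, *CG11741* and *CG5321* lay below *FASN1*, so the place of the others in the range rests on *Yp1*. Of the members below *FASN1*, *CG10680* alone is among these calls. The part of free RNA in their values outside fat body was not tested. For *scu* (38.1%), *Sirup* (79.4%), *h* (83.4%) and *fabp* (181%) the level elsewhere was above that range.

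**Figure D3:**
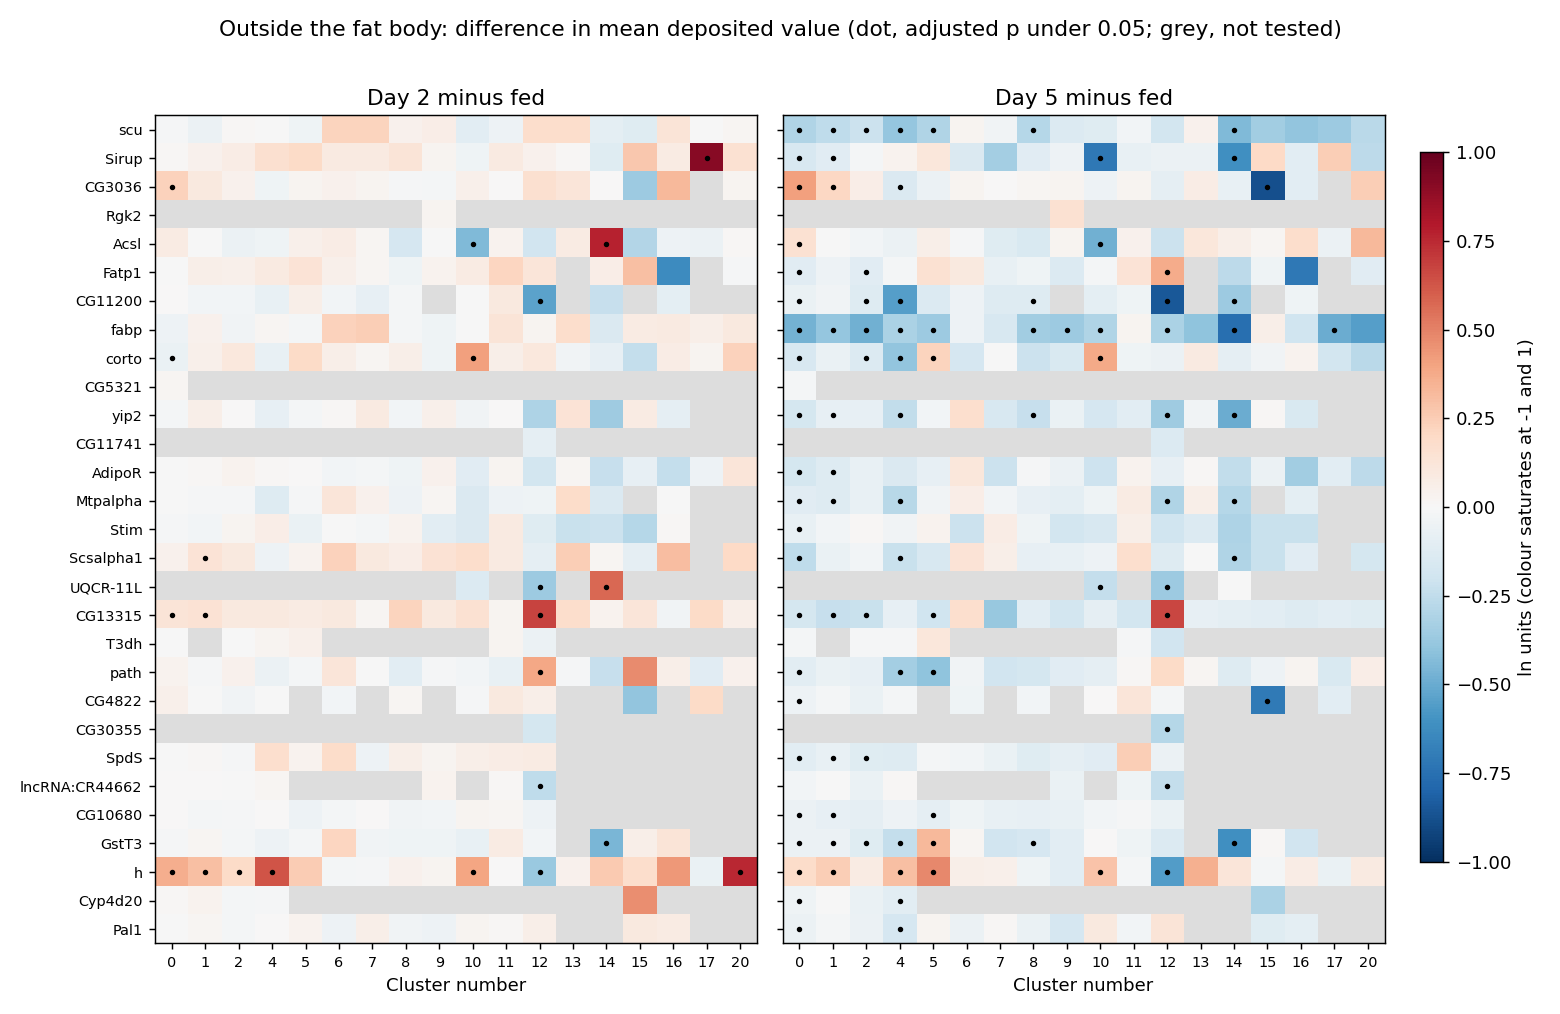
Difference of mean deposited values (natural log units, colour) of the 29 genes in the 18 other clusters tested, with genes down and cluster numbers across, for day 2 minus fed and day 5 minus fed. Dots mark a limma adjusted p under 0.05 and grey marks genes not tested, with 16 higher and 7 lower calls at day 2 and 13 higher and 83 lower calls at day 5, of which flight muscle (cluster 0) holds 19 lower ones and *fabp* 11.

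**Figure D4:**
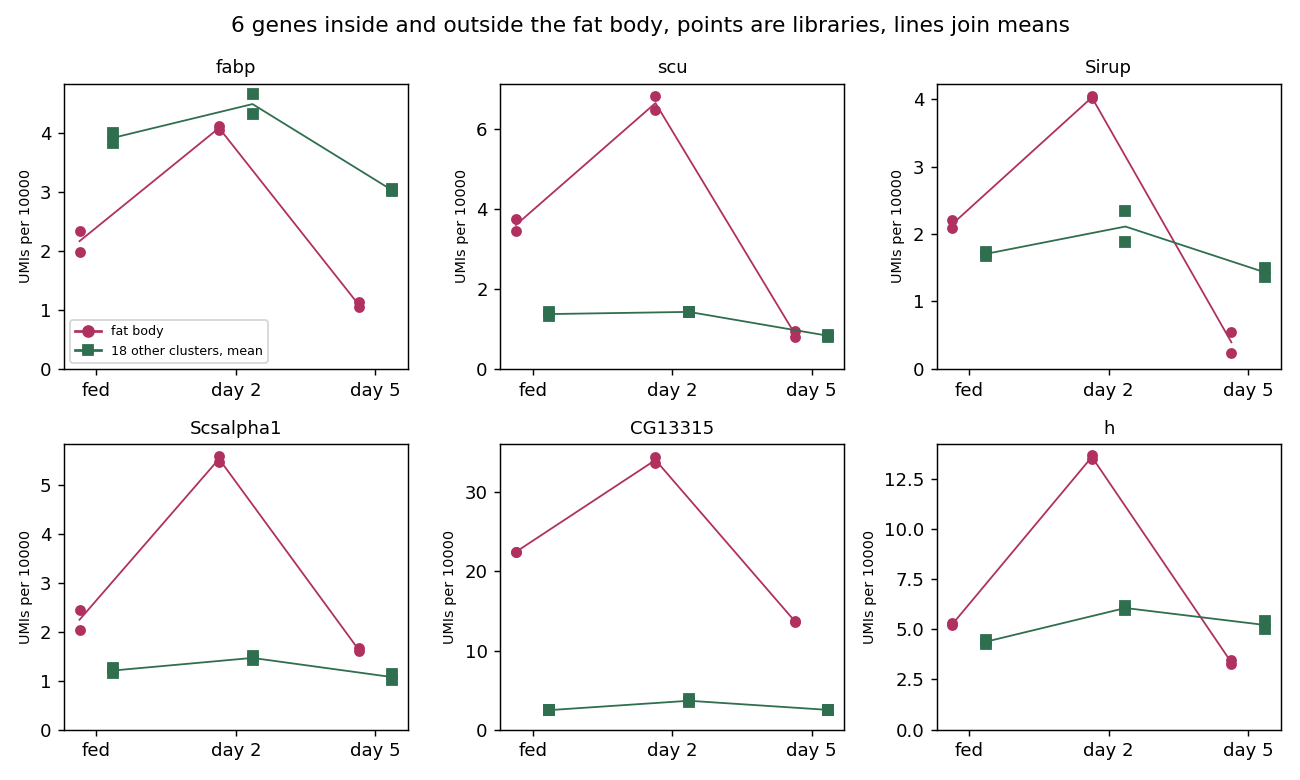
Level of *fabp*, *scu*, *Sirup*, *Scsalpha1*, *CG13315* and *h* in UMIs per 10000 for fed flies, day 2 and day 5, with circles for fat body, squares for the mean of the 18 other clusters, 1 mark per library and lines joining the means. In fat body *scu* lies between 0.790 and 6.82 with its peak at day 2, while *fabp* is higher outside fat body than in it and *h* outside fat body is highest at day 2.

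Cluster by cluster, 361 tests of members could be made, since a gene was tested only where at least 10 nuclei had a value above 0 in at least 2 libraries. At day 2, 16 of these were called higher and 7 lower, while over all 98205 gene by cluster tests 1.3% were called higher and 3.07% lower. At day 5, 13 were called higher and 83 lower, beside 4.33% higher and 16% lower over all tests. The clusters share libraries, so these sums describe the calls and are not independent tests. *h* was called higher at day 2 in 6 clusters, with differences of 0.36 in flight muscle (limma adjusted p = 1.72e-06), 0.30 in the other main muscle cluster, 0.63 in follicle cell cluster 4, 0.39 in trachea cells, 0.19 in epithelial cells and 0.76 in epidermal cluster 20. The 1 cluster in which it was called lower was cluster 12, with differences of -0.37 at day 2 and -0.56 at day 5. *fabp* was called lower at day 5 in 11 of the 18 clusters, from -0.30 in trachea cells to -0.75 in follicle cells of stage 9 and later. *scu* was lower at day 5 in 7 clusters, *CG11200*, *yip2* and *GstT3* in 6 each and *Mtpalpha* in 5. *Sirup* was called higher at day 2 in hemocytes (0.91 ± 0.22, SE, limma adjusted p = 0.0449) and lower at day 5 in 4 other clusters, among them trachea cells (-0.72). The sums at day 2 were smaller with any fed or day 2 library left out. That of lower calls at day 5 was smaller without either fed library. The shares over all tests in these settings are not given here.

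In indirect flight muscle 25 members were tested. At day 2 *h*, *CG3036* and *CG13315* were higher and *corto* was lower, with 4.74% of all genes higher and 8.93% lower. At day 5, 19 of the 25 were lower in a cluster where 44.1% of all genes were called lower, and *h*, *Acsl* and *CG3036* were higher, beside 8.68% of all genes. *CG3036* thus differed by 0.23 at day 2 and 0.41 at day 5 in flight muscle, while in fat body its day 5 level was below that of fed flies. *Acsl* was likewise higher in flight muscle at day 5 (0.15 ± 0.030, SE, limma adjusted p = 0.000597) and lower in trachea cells on both days (-0.44 at day 2 and -0.48 at day 5). Cluster 12 had 26 members tested. At day 2, *h*, *CG11200*, *UQCR-11L* and *lncRNA:CR44662* were lower (7.86% of all genes were), and *CG13315* (0.67) and *path* (0.39) were higher (2.58% of all genes were). At day 5, 8 members were lower beside 9.19% of all genes, and *CG13315* (0.67) and *Fatp1* (0.37) were higher beside 9.62%.

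In oenocytes, liver-like cells that carry the driver of these flies, 18 members had enough values to be tested, and no member was called higher or lower at day 2, while 2.73% of 3511 genes were called higher and 4.19% lower. At an unadjusted p under 0.05 by limma, *Sirup*, *path* and *Cyp4d20* were higher and *CG3036*, *Acsl* and *CG4822* lower. The share of all oenocyte genes at that unadjusted threshold is not given here, so nothing is read from how many members passed it. On summed UMIs, and likewise on mean log-normalized UMIs, 1 member was called higher and 1 lower. At day 5, *CG3036* and *CG4822* were called lower, with 8.12% of all genes called lower. *CG3036* had mean values of 0.995 and 1.13 in fed oenocytes, 0.651 and 0.744 at day 2, and 0.116 and 0.251 at day 5. The difference at day 5 was -0.88 ± 0.11 (SE, limma adjusted p = 0.000702), and the values were ordered from fed to day 2 to day 5 with no library out of place. *CG4822* had 1.59 and 1.53 in fed oenocytes, 1.10 and 1.24 at day 2, and 0.781 and 0.923 at day 5 (-0.71 ± 0.11, SE, limma adjusted p = 0.00262). For both genes day 2 lay below fed flies in oenocytes and above them in fat body. Between day 5 and day 2 *CG3036* alone was called lower (limma adjusted p = 0.0328), with 3.3% of all genes lower. That last call was lost when any library other than day 2 library 1 was left out. The fatty acid members were tested here too. *scu* had 1.32 and 1.21 in fed oenocytes, 1.05 and 1.25 at day 2, and 0.875 and 0.970 at day 5, and it did not pass the threshold on either day. *fabp* had 1.38 and 1.16 in fed flies, 1.43 and 1.28 at day 2, and 1.43 and 1.23 at day 5, with overlapping groups.

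To place the members among related genes, lists of metabolic and signalling genes were tested in fat body with the members and the 10 genes left out by name set aside. The fatty acid breakdown list holds 4 members and 5 of the genes left out by name. Of its other 23 genes, 8 rose and 1 fell at day 2, and 4 rose and 12 fell at day 5 (limma, Benjamini-Hochberg adjusted p under 0.05 over 8065 genes). Over all 8065 genes 12.1% were called higher and 8.33% lower at day 2, and 15.5% higher and 15.9% lower at day 5. These shares stand beside the counts of each list below. *CG9527* and *CG4598* both rose at day 2 and fell at day 5 without reaching the selection's thresholds. The median difference of the 23 genes was 0.040 at day 2 and -0.18 at day 5. *Echs1*, the enoyl-CoA hydratase of the same cycle, had mean values of 0.841 and 0.773 in fed flies, 1.09 and 1.19 at day 2, and 0.895 and 0.705 at day 5, so it rose at day 2 alone. *CPT2*, the inner membrane carnitine palmitoyltransferase, fell at day 5 (difference -0.42). The acyl-CoA synthetase genes *hll* (heimdall) and *bgm* (bubblegum) rose on both days. *hll* had 0.0181 and 0.0455 in fed flies, 1.48 and 1.76 at day 2, and 2.33 and 2.30 at day 5, and *bgm* differed from fed flies by 0.77 at day 2 and 1.29 at day 5.

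The list of lipases and lipid droplets holds 3 of the genes left out by name (*CG5966*, *Lip4* and *GIIIspla2*), which passed the selection's thresholds. Of its 17 other genes, 4 rose and 5 fell at day 2, and 4 rose and 8 fell at day 5, with 1 (*Lsd-2*) higher at day 2 and lower at day 5. The triglyceride lipase *bmm* (brummer) rose on both days, with 1.16 and 1.16 in fed flies, 2.68 and 2.53 at day 2, and 3.12 and 3.23 at day 5. The droplet proteins *Lsd-1* and *Jabba* fell on both days, with differences at day 5 of -2.26 and -2.75. Of 9 other lipoprotein and lipid transport genes, 1 rose and 2 fell at day 2, and 3 rose and 2 fell at day 5.

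The lists for carbohydrate and amino acid metabolism had more genes higher on both days (9 and 11) than the fatty acid breakdown list (3). The share of all genes higher on both days is not given here. The members and the genes left out by name, set aside from these lists, cannot be higher on both days because of their selection. Among 19 genes of gluconeogenesis, glycogen and trehalose, with *Pepck2* set aside because it passed the selection's thresholds, 12 rose and 4 fell at day 2, 10 rose and 3 fell at day 5, and 9 were higher on both days. Pyruvate carboxylase (*PCB*) had differences of 0.63 at day 2 and 0.29 at day 5, and *Ldh*, lactate dehydrogenase, 0.96 and 0.38. The glycerol phosphate enzymes *Gpdh1* and *Gpo1* fell on both days (-1.33 and -0.98 at day 5). Among 28 genes of amino acid breakdown and one-carbon metabolism, 11 rose and 3 fell at day 2, 19 rose and 2 fell at day 5, and 11 were higher on both days. *Got2*, mitochondrial aspartate aminotransferase, had 0.438 and 0.399 in fed flies, 2.10 and 2.33 at day 2, and 2.89 and 2.90 at day 5. *Gnmt*, glycine N-methyltransferase, was higher at day 5 only, with 0.189 and 0.130 in fed flies, 0.0786 and 0.0276 at day 2, and 2.12 and 2.48 at day 5.

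**Figure D5:**
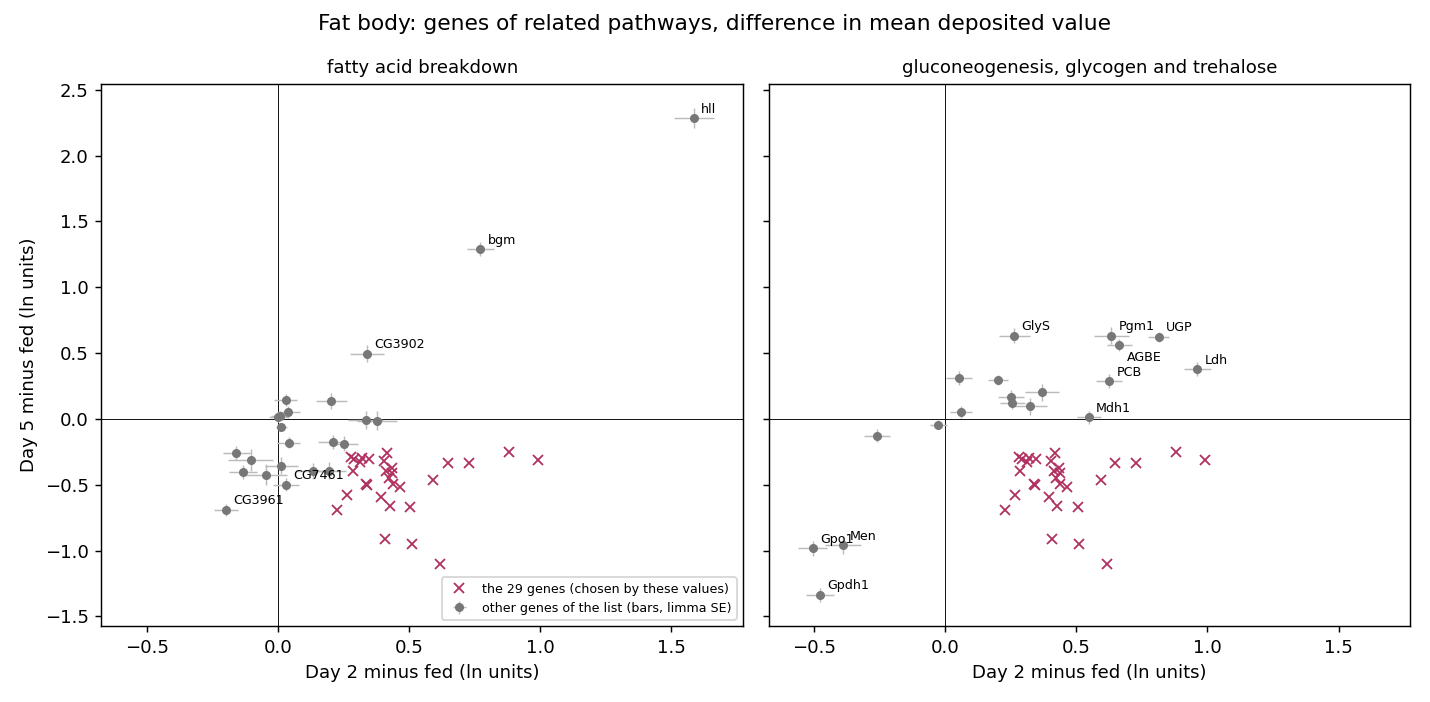
Difference of mean deposited values in fat body (natural log units), day 2 minus fed across and day 5 minus fed up, for the other genes of the fatty acid breakdown list (left) and of the gluconeogenesis, glycogen and trehalose list (right), as circles with limma standard errors, and for the 29 members as crosses in both. The members lie at the lower right because they were chosen there, *hll*, *bgm*, *PCB* and *Ldh* lie at the upper right, and *Gpdh1* and *Gpo1* at the lower left.

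Signalling and regulatory lists were mixed. Of 33 insulin, TOR and adipokinetic signalling genes, 5 rose and 9 fell at day 2, and 8 rose and 9 fell at day 5. *AkhR*, the receptor for the lipid-mobilizing adipokinetic hormone, fell by 0.36 at day 2 and by 1.73 at day 5. Of 36 transcription factors of nutrient state, 3 rose and 7 fell at day 2, and 10 rose and 10 fell at day 5. *Hnf4*, a nuclear receptor that controls fatty acid oxidation genes in the fly, had mean values of 2.14 and 2.11 in fed flies, 1.79 and 1.81 at day 2, and 1.78 and 1.92 at day 5. *sug*, a zinc finger factor of sugar sensing, fell by 0.81 at day 2 and by 2.10 at day 5, and *foxo* rose at day 5 (difference 0.36). Of 24 autophagy and lysosome genes, 1 rose and 6 fell at day 2, and 2 rose and 5 fell at day 5. Of 11 clock genes, 3 rose and 3 fell at day 2, and 3 rose and 1 fell at day 5, among them *tim* (timeless), with 0.373 and 0.395 in fed flies, 1.59 and 1.65 at day 2, and 1.88 and 1.93 at day 5. Of 17 stress and immune genes, 2 rose and 4 fell at day 2, and 3 rose and 8 fell at day 5.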

How the data were processed

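Nuclei were isolated, sorted and sequenced with 10X Genomics 3′ chemistry (v3.1). The authors counted UMIs with Cell Ranger 6.1.1, equalized read depth and joined the libraries with its aggr step. The submitters' processing notes also name Seurat and build BDGP6. They deposited a natural log matrix of 12925 genes by 43027 nuclei and a table of clusters and conditions. The step that made the deposited natural log values is not given in the sources used here. The values fit ln(1 + 10000 × UMI share in the nucleus ÷ mean UMIs of the gene per nucleus). UMIs worked back in this way were whole within 0.05 for 99.99% of values above 0, and 6.88% of values were above 0. Samples were grouped by title (day 2, day 5), although the names of their libraries hold a 5 or a 7.

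Members, gene lists and markers were chosen with earlier results of these data known. All members are named, and other genes come from the lists. Since the files hold no counts, limma 3.58.1 (R 4.3.3) with a trended prior was run on mean values per library and cluster, with Benjamini-Hochberg adjustment over all genes tested and a threshold of 0.05. The 3 conditions shared 1 estimate of the spread. Genes needed 10 nuclei with a value above 0 in each of 2 libraries. Scripts ran in Python 3.11.15 (numpy 2.4.6, scipy 1.17.1, pandas 2.3.3, matplotlib 3.10.9) and were tested on simulated data. Doublets were not called, and barcodes shared between libraries were kept. Alternatives were no filter, summed UMIs (0.5 added per sum, 1 per total), mean log-normalized UMIs, a replicate block, only the 4 libraries compared, each library left out, all other nuclei pooled, ovary clusters left out, other thresholds and, chosen after the data were seen, nuclei reduced to 500 UMIs.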

Additional observations from a re-analysis of the deposited data

Results flagged for a closer look

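In the average over other clusters, 9 differences ran opposite to those in fat body, with no overlap between the starved and the fed libraries in either place. Separation of 2 libraries from 2 is common, since 45% of all genes had both day 5 libraries below both fed libraries in this average. The shares of all genes for the orders counted here are not given, so nothing is read from the number of these 9 differences. In each case the difference between fat body and the other clusters was not tested, and the fat body direction is the one the genes were chosen for. At day 2, when all members were above fed flies in fat body, the mean value elsewhere was below fed flies for *CG11200* (-0.065), *Stim* (-0.054), *AdipoR* (-0.039), *lncRNA:CR44662* (-0.031), *GstT3* (-0.025), *Mtpalpha* (-0.017) and *CG10680* (-0.016). None of these 7 passed adjustment by limma. At day 5, when all members were below fed flies in fat body, *h* was above them elsewhere (0.084), a call that passed adjustment by limma (adjusted p = 0.0108) and was lost in 5 of 14 alternative settings. *Rgk2* was also above fed flies elsewhere at day 5 (0.014) and did not pass adjustment. It was called higher there on summed UMIs (1.10 on the log2 scale, limma adjusted p = 8.24e-05). That scale adds the same constant to every sum, so at a sum of 0 a smaller total gives a higher value. Day 5 libraries held 7562484 and 7735443 UMIs, against 22940414 and 21311894 in fed flies. The median fed level of *Rgk2* over the clusters other than fat body was 0. The part of the constant in this call was not tested, and no rise is read from it. Without day 5 library 1 the difference of *Rgk2* in mean values was 0.028. Over its alternatives the limma adjusted p ran up to 0.973. Its level elsewhere was 30.4% of that in fat body at day 5 and 4.11% in fed flies.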

How the results depend on the processing

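With 2 libraries per condition and day 5 libraries that held the fewest nuclei, small differences of weakly captured genes were not detectable at this depth, and the cause of the shifts below was not tested unless named. Where a count below stands without a share of all genes, nothing is read from its size. The number of genes passing the fat body selection was 29. It was 91 with a threshold of 0.1, 18 with 0.3, 191 on summed UMIs, 15 with nuclei reduced to 1000 UMIs, 13 on mean log-normalized UMIs, 25 with both fed libraries as reference, and 30 to 40 with 1 library left out. Of the 29 members these settings kept 29, 18, 25, 13, 13, 25 and 26 to 29.

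In the average over other clusters, the members called higher at day 2 were 4, 11 with all other nuclei pooled and 2 with nuclei reduced to 500 UMIs. Of all genes 3.82%, 25.0% and 0.699% were called higher in these settings. Lower at day 5 were 17, and 5 with 500 UMIs, beside 21.5% and 6.97% of all genes. Higher at day 5 was 1, with 2 when pooled, 2 on summed UMIs, 0 with 500 UMIs and 0 without ovary clusters. Of all genes 6.93%, 11.7%, 28.6%, 3.84% and 5.99% were called higher in these settings. Lower at day 5 than at day 2 were 21, 9 with 500 UMIs and 8 to 17 with 1 library left out, and 1 member was higher when pooled and 1 on summed UMIs.

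In oenocytes, 1 member was higher and 1 lower at day 2 on summed UMIs, and the same counts came from log-normalized UMIs. With 500 UMIs 1 was lower at day 5. Lower at day 5 than at day 2 were 0 with no filter, 3 on summed UMIs, 4 log-normalized (with 1 higher), 0 with 500 UMIs and 0 to 1 with 1 library left out.

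Summed over clusters, the 16 higher calls at day 2 became 7 with no filter, 7 with 500 UMIs and 5 to 17 with 1 library left out. The 7 lower calls became 0, 0 and 0 to 7 in the same settings. At day 5 the 13 higher calls became 8 with 500 UMIs and 8 to 19 with 1 library left out, and the 83 lower calls became 26 and 40 to 80.

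Of single values, 756 kept their direction and call, 55 lost a call, 22 gained one and 3 reversed: *CG3036* at day 5 with all other nuclei pooled (0.16), *CG30355* at day 5 on summed UMIs (0.18) and *CG4822* in oenocytes at day 5 with 500 UMIs (0.011). The mean UMIs per 10000 of *CG30355* over other clusters were 0.0353 and 0.0303 in fed flies and 0.0180 and 0.0107 at day 5. Its 0.18 is on the log2 scale with 0.5 added to each sum, and the part of that 0.5 was not tested. At day 2, 57.9% of all calls in the average were lower, against 48.9% on summed UMIs and 70.8% with 500 UMIs. On summed UMIs the median of all genes in oenocytes at day 5 was -0.16 (log2).

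Deviations of libraries with the same number had correlations between -0.057 and 0.044 over genes. With 1 difference per condition this could miss a modest shared shift, so whether the numbers pair the libraries was not decided. With the replicate block, the average gave 4 members higher at day 2, 18 lower and 1 higher at day 5, and 20 lower at day 5 than at day 2, and the clusters gave 17, 6, 14 and 82 calls in the order above.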
